A study of Mus musculus with 6 samples.

Results

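The expression of 10 genes for fatty acid synthesis, desaturation and elongation was examined in synovial fibroblasts (SFs) treated with amisulpride. The genes were chosen by name as a biochemical pathway from the 49548 genes of the deposited table, with their normalised counts in the 3 untreated and 3 treated libraries already seen. Every treated versus untreated value given for them is therefore a description and not independent support. They comprise the synthesis genes Acly, Acaca and Fasn, the desaturases Scd1, Scd2, Fads1 and Fads2, and the elongases Elovl1, Elovl5 and Elovl6.

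SFs are fibroblasts of the joint lining and its supporting layer. They came from ankle joints of hTNFtg mice (CBA C57BL/6J, aged 8 weeks), in which a human TNF transgene causes polyarthritis, and CD45+ cells were depleted in culture. All libraries carry the transgene, 3 from untreated SFs and 3 from SFs given 500 μM amisulpride, an antagonist of dopamine and serotonin receptors, for 48 hours. The labels say that the controls received no treatment, whereas the methods speak of vehicle, so an effect of the vehicle cannot be told apart from that of the drug. RNA was profiled by 3′ mRNA sequencing, which reads the end of each transcript, and the values are normalised counts. The sources call the libraries biological replicates without saying whether they came from separate animals, so p-values measure the spread between these libraries.

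Cells build fatty acids in the cytosol from acetyl-CoA. Acly makes acetyl-CoA from citrate, Acaca carboxylates it to malonyl-CoA, and Fasn joins these units into the saturated chain palmitate. Elongases lengthen the chain in the endoplasmic reticulum, stearoyl-CoA desaturases such as Scd1 and Scd2 turn saturated into monounsaturated chains, and Fads1 and Fads2 add further unsaturated bonds to polyunsaturated chains. Many of these genes are known targets of the SREBP transcription factors, which also drive sterol synthesis, and of the liver X receptors (LXR). In fibroblasts the pathway supplies membrane lipids.

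The libraries held approximately 2.52 to 4.71 M reads, the depth of untreated replicate 1 being uncertain. Amisulpride replicate 3 was the shallowest, and its log2 values over 12614 genes had a median Pearson correlation of 0.902 with the other libraries, against 0.914 to 0.941 for the rest. All 14 SF markers examined were measured, at a summed level of 47856 to 62025 normalised counts in untreated and 56010 to 93251 in treated libraries. The 15 myeloid markers summed to 2901 to 5684 and 2848 to 5251, so myeloid transcripts were present in both groups although CD45+ cells had been depleted, and their part in the results was not tested. No myeloid marker had an adjusted p under 0.05 in limma, and 1 was called lower with the replicate number as a block. At an unadjusted p under 0.05, 2 were lower and 1 higher, against 5.77% and 5.11% of all genes. Of 15 proliferation genes, 13 passed the filter and 12 had a log2 fold change below 0. None of these had an adjusted p under 0.05 in limma, 6 had an unadjusted p under 0.05, and their summed level was 923 to 1145 in untreated and 641 to 830 in treated libraries. Whether this accompanies the values below was not tested.

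The stearoyl-CoA desaturases had the lowest treated values relative to untreated SFs, and the synthesis genes Fasn and Acaca came next. The elongases and Acly were lower by less, with overlapping groups, and Fads1 was not lower. Of the 10 genes, 9 passed the filter on low values, a normalised count of 10 or more in 3 or more of 6 libraries. Scd1 and Scd2 had an adjusted p under 0.05 in limma, 2 of 9 where 0.19% of all 12614 genes were called lower, 24 in all. At the study thresholds, which ask for a log2 fold change of 1 or more in either direction and an unadjusted p under 0.05, the count was 4 of 9, namely Scd1, Scd2, Fasn and Acaca, against 3.01% of all genes. These 4 were also the genes whose 3 treated values all lay below the 3 untreated values, which held for 8.66% of all genes. The log2 fold change was below 0 for 8 of the 9, against 49.9% of all genes, and its median was -0.65 against 0.00155. In bulk RNA, fewer cells of a kind and less RNA per cell cannot be told apart.

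**Figure D1:**
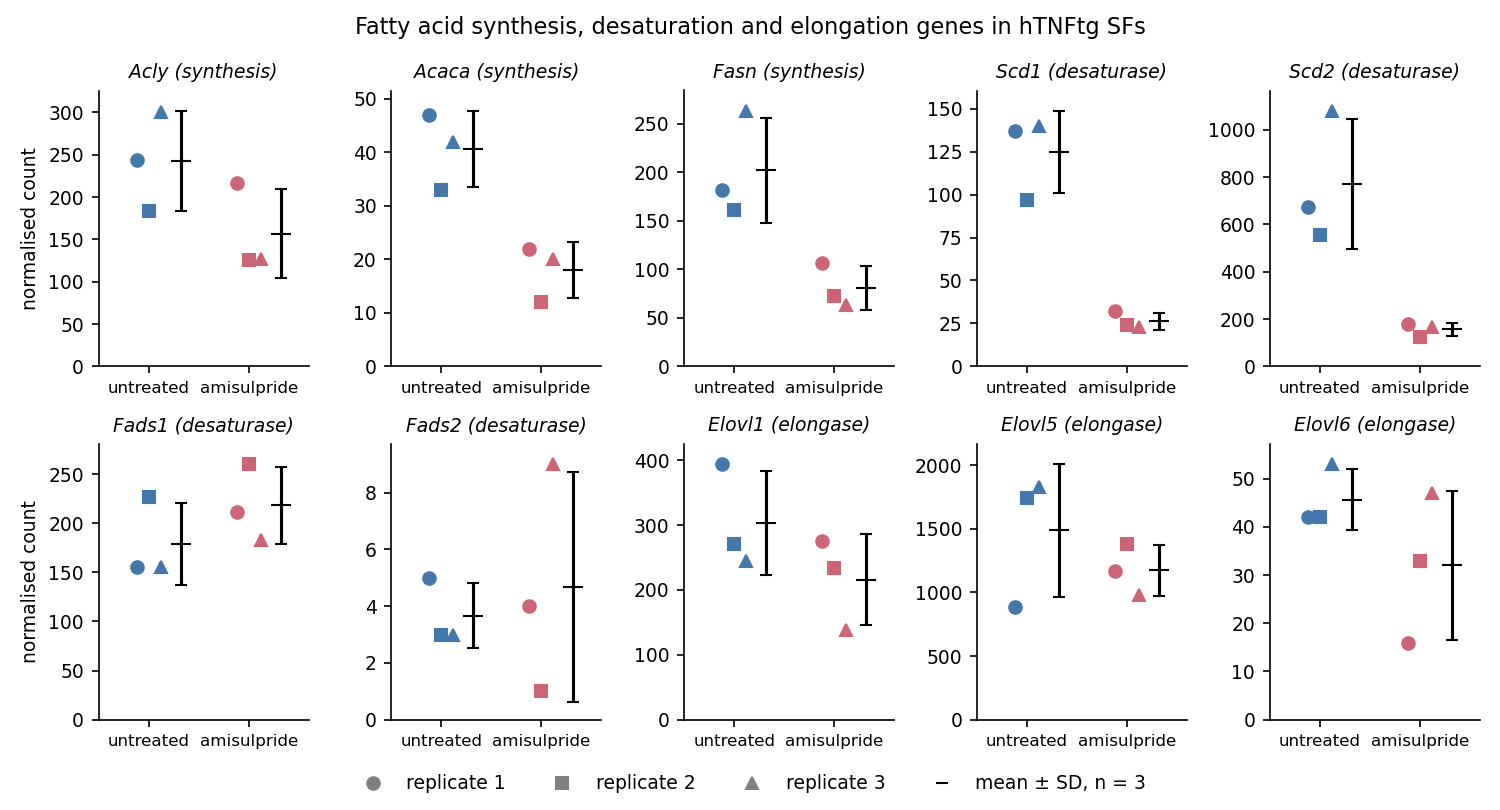
Normalised counts of the 10 genes (vertical axes, linear and starting at 0, a different scale in each panel) in the 3 untreated and 3 amisulpride libraries, with the mean ± SD (n = 3) beside the points. Scd1 drops from 97 to 140 down to 23 to 32, the groups are also apart for Scd2, Fasn and Acaca, and Fads2 stays at 9 or less in every library.

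Acly (ENSMUSG00000020917, chr11:100476353-100528000, minus strand, mm10) encodes ATP citrate lyase. It had 244, 183 and 301 normalised counts in untreated replicates 1, 2 and 3, and 217, 126 and 127 in the treated ones. The groups overlapped, because treated replicate 1 lay above untreated replicate 2, and the treated library was the lower one in each of the 3 replicate pairs. The means were 242.7 ± 59.0 and 156.7 ± 52.3 (SD, n = 3), and limma gave a log2 fold change of -0.65 ± 0.30 (SE) at an adjusted p of 0.469.

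Acaca (ENSMUSG00000020532, chr11:84129672-84401651, plus strand) encodes acetyl-CoA carboxylase alpha, the committed step of the pathway. Untreated SFs held 47, 33 and 42 normalised counts and treated SFs 22, 12 and 20. All treated values were lower, but at 9 to 50 approximate reads in a library the gene was shallowly covered. In limma the log2 fold change was -1.16 ± 0.38 (SE, as below), at an adjusted p of 0.263. Of the 31-base words in the last 300 bases of its annotated transcripts, 22.7% also occur in Gm5182, and whether reads of these genes were mixed was not tested.

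Fasn (ENSMUSG00000025153, chr11:120805846-120824547, minus strand) encodes fatty acid synthase. It stood at 182, 161 and 263 normalised counts in untreated and at 106, 72 and 63 in treated libraries. The groups did not overlap, and the treated mean of 80.3 ± 22.7 was 39.8% of the untreated mean of 202 ± 53.9. The log2 fold change of -1.32 ± 0.30 had a 95% interval of -1.98 to -0.66. Its adjusted p was 0.0982, and 0.0267 in the fit with the replicate number as a block, which called 3 of the 9 genes lower, against 1.05% of all genes. The 3 replicate pairs gave log2 ratios of -0.77, -1.15 and -2.04, so the size of the difference varied more between pairs than for the stearoyl-CoA desaturases.

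Fasn and Acly are steps of one route but did not keep one ratio. Within a library, Fasn over Acly was 0.746, 0.880 and 0.874 in untreated and 0.488, 0.571 and 0.496 in treated SFs. The means were 0.833 ± 0.0756 and 0.519 ± 0.0459 (SD, n = 3), and the values of the groups did not overlap. These are ratios of normalised counts from transcript ends, not of amounts of protein.

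Scd1 (ENSMUSG00000037071, chr19:44394451-44407709, minus strand) encodes stearoyl-CoA desaturase 1, which makes oleate and palmitoleate. It had 137, 97 and 140 normalised counts in untreated and 32, 24 and 23 in treated libraries. The lowest untreated value was well above the highest treated one. The mean of Scd1 fell from 124.7 ± 24.0 to 26.3 ± 4.93 (SD, n = 3), the untreated mean being 4.73-fold the treated mean. In limma the log2 fold change was -2.20 ± 0.30, with an interval of -2.86 to -1.53 and an adjusted p of 0.014.

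Scd2 (ENSMUSG00000025203, chr19:44293676-44306864, plus strand), the paralogue prominent in tissues other than liver, held 676, 557 and 1080 normalised counts in untreated and 178, 124 and 168 in treated libraries. Untreated replicate 3 was high, yet even the lowest untreated value exceeded every treated one. Scd2 fell from 771 ± 274 to 156.7 ± 28.7, a ratio of means of 4.92. Its log2 fold change of -2.25 ± 0.29 had an interval of -2.90 to -1.61 and an adjusted p of 0.013. Both calls were lost when certain single libraries were left out. Without untreated replicate 1, 2 or 3 or amisulpride replicate 2, the adjusted p of Scd1 was 0.124, 0.083, 0.167 and 0.059 and that of Scd2 was 0.115, 0.083, 0.156 and 0.059, with log2 fold changes between -2.46 and -1.98. In the same fits the number of genes called across the transcriptome fell from 36 to 1, 0, 0 and 6. Without the shallow amisulpride replicate 3 the log2 fold changes were -2.11 for Scd1 and -2.31 for Scd2, with adjusted p-values of 0.00853 and 0.00591.

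The coding sequences of Scd1 and Scd2 (1068 and 1077 bases in GENCODE M21, build GRCm38) were 89.8% identical, so their reads could be confused. The last 90 coding bases of each are shown to make this visible, with the 12 differing bases in capitals:
Scd1: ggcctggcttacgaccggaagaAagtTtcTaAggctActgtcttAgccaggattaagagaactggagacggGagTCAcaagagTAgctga
Scd2: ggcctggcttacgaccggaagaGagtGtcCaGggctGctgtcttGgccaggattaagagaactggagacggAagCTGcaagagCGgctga
The sequenced transcript ends were compared by another measure, which was not applied to the coding sequences. No 31-base word of the last 300 bases of either gene was found in an annotated transcript of any other gene, its paralogue included. Scd1 made up 14.4 ± 2.72% of the sum of both genes in untreated and 14.5 ± 2.18% in treated libraries (SD, n = 3). This share differed between the groups by less than the spread between libraries.

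Fads1 (ENSMUSG00000010663, chr19:10182888-10196870, plus strand) encodes the delta-5 desaturase of polyunsaturated fatty acids. It had 155, 227 and 155 normalised counts in untreated and 211, 260 and 183 in treated libraries. The groups overlapped, while the treated library was the higher one in each of the 3 replicate pairs, with log2 ratios of 0.44, 0.20 and 0.24. Limma gave 0.29 ± 0.27 on the log2 scale, with an interval of -0.29 to 0.88 and an adjusted p of 0.74.

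Fads2 (ENSMUSG00000024665, chr19:10064164-10101503, minus strand) encodes the delta-6 desaturase, which acts before Fads1 on dietary polyunsaturated fatty acids. It was listed at 5, 3 and 3 normalised counts in untreated and at 4, 1 and 9 in treated libraries. It exceeded the floor of 3 reads in 4 of 6 libraries and failed the filter. A difference in Fads2 was not detectable at this depth.

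Elovl1 (ENSMUSG00000006390, chr4:118428093-118432953, plus strand) encodes the elongase of very long saturated and monounsaturated chains. Its normalised counts were 394, 271 and 245 in untreated and 275, 234 and 138 in treated libraries. The groups overlapped, with the treated library lower in each pair, and the log2 fold change was -0.52 ± 0.31, at an adjusted p of 0.587. The last 53 bases of Elovl1 overlap the end of the cell cycle gene Cdc20 on the opposite strand, and counting by strand is not stated. Cdc20 itself had 148, 112 and 123 normalised counts in untreated and 48, 91 and 14 in treated libraries, which is -1.65 ± 0.53 on the log2 scale at an adjusted p of 0.253, and of 0.0403 with the replicate block. Reads of Cdc20 within the value of Elovl1 were not tested.

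Elovl5 (ENSMUSG00000032349, chr9:77917364-77984519, plus strand) encodes the elongase of polyunsaturated chains that works with Fads1 and Fads2. It had 888, 1744 and 1831 normalised counts in untreated and 1167, 1381 and 979 in treated libraries. The untreated values were widely spread and enclosed the treated ones. On the log2 scale the difference was -0.28 ± 0.31, with an interval of -0.96 to 0.40 and an adjusted p of 0.784.

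Elovl6 (ENSMUSG00000041220, chr3:129532355-129638495, plus strand) encodes the elongase that turns palmitate into stearate, the substrate of the stearoyl-CoA desaturases. It had 42, 42 and 53 normalised counts in untreated and 16, 33 and 47 in treated libraries. Treated replicate 1 was low and treated replicate 3 lay among the untreated values, while the treated library was lower in each pair. Its log2 fold change was -0.62 ± 0.41 at an adjusted p of 0.63. The pseudogene Gm11295, which shares 16.2% of the words in the transcript ends of Elovl6, was listed at 0 in all libraries.

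**Figure D2:**
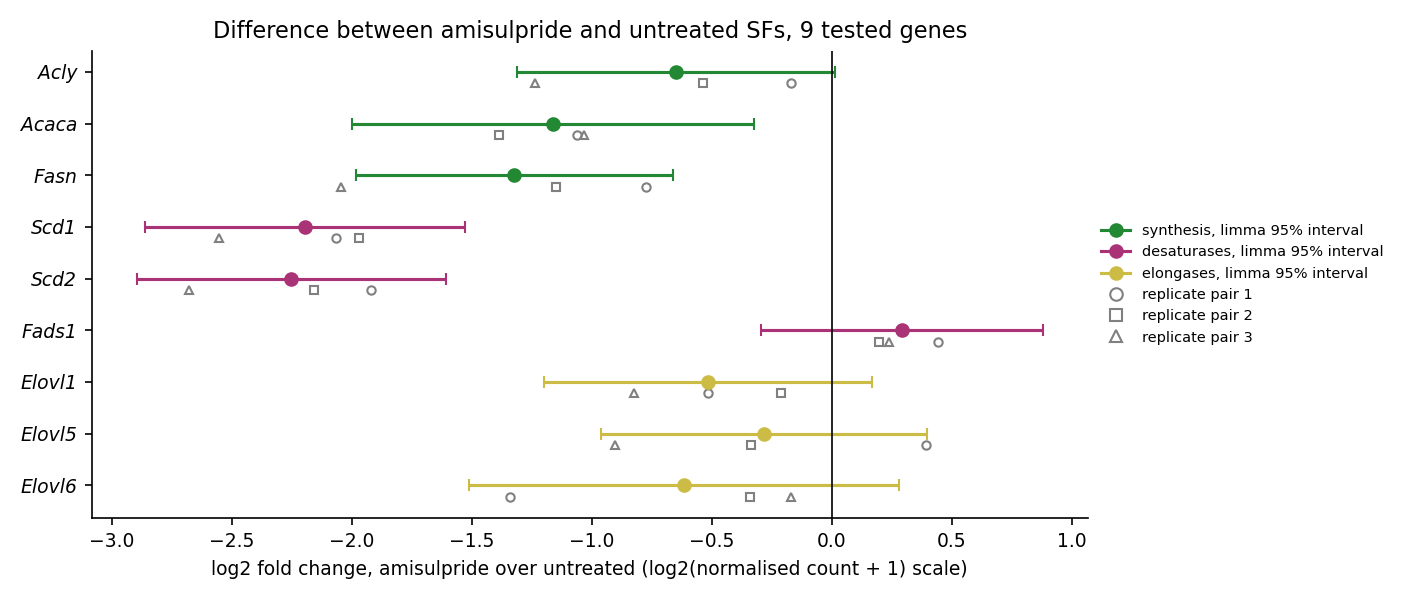
Log2 fold change, amisulpride over untreated, of the 9 tested genes (horizontal axis, log2(normalised count + 1) scale), with filled points and bars for the limma estimate and its 95% interval and open symbols for the 3 replicate pairs. Scd1 and Scd2 lie near -2.20 and -2.25, apart from Fads1 at 0.29, and the intervals of Acly and the 3 elongases include 0.

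To compare the enzyme classes, the log2 values of the tested genes of a class were averaged in each library. The synthesis genes averaged 7.01, 6.65 and 7.24 in untreated and 6.34, 5.63 and 5.80 in treated libraries, a difference of -1.04 with a pooled SD of 0.34. The elongases averaged 8.07 ± 0.12 and 7.60 ± 0.18 (SD, n = 3), a difference of -0.47. The desaturases differed by -1.39, an average of unlike genes. Scd1 and Scd2 together gave -2.22 with a pooled SD of 0.31, and Fads1 gave 0.29 with a pooled SD of 0.29. Treated lay below untreated in all libraries for each of the 3 classes, though not for Fads1.

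Differences between classes within a library remove a shift shared by all genes. Scd1 and Scd2 exceeded the synthesis genes by 1.24, 1.22 and 1.37 log2 units in untreated SFs and by -0.08, 0.18 and 0.20 in treated SFs. This change of -1.18 was the one with the smallest spread, a pooled SD of 0.12. Against the elongases the change of Scd1 and Scd2 was -1.75, and against Fads1 it was -2.52. The synthesis genes set against the elongases gave -0.94, -1.44 and -0.94 in untreated and -1.12, -2.17 and -1.75 in treated SFs, which overlapped. The change of Scd1 and Scd2 lay apart from those of the synthesis genes, the elongases and Fads1 by more than the spread between libraries. Scd1 and Scd2 were set apart from Fads1 with these values known, so this is a description and not a test. For the synthesis genes against the elongases the groups overlapped, the treated library being lower in each of the 3 replicate pairs. On the linear scale, the sum of Scd1 and Scd2 over Fads1 was 5.33 ± 2.5 in untreated and 0.869 ± 0.261 in treated SFs (SD, n = 3), and the same sum over Fasn was 4.39 ± 0.296 and 2.36 ± 0.586.

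**Figure D3:**
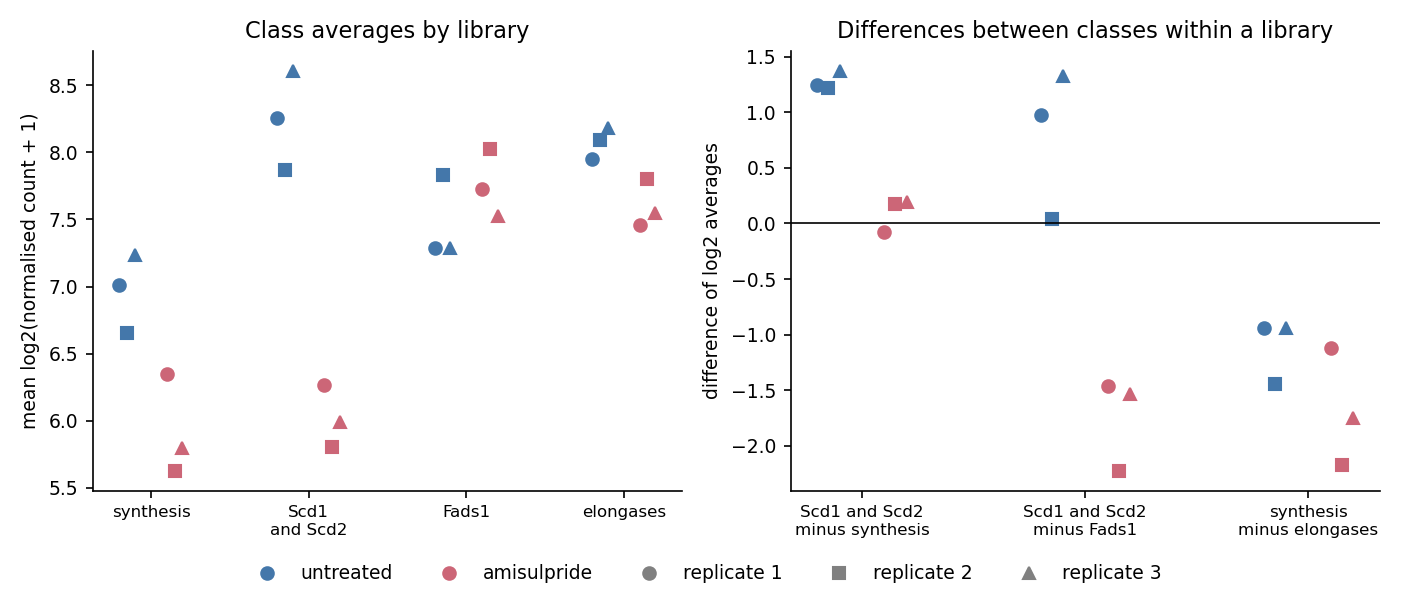
Mean log2(normalised count + 1) of each class in each library (left) and the difference of these averages between classes within a library (right), by group (colour) and replicate number (symbol). The untreated and treated points of Scd1 and Scd2 minus the synthesis genes are apart, at 1.22 to 1.37 and -0.08 to 0.20, while those of the synthesis genes minus the elongases overlap.

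Both desaturase families lie in gene clusters on chromosome 19. Scd1 lies 87586 bp beyond Scd2, on the opposite strand, and Fads1 lies 81384 bp beyond Fads2. Within 200 kb of Scd2 and of Fads2, 13 other genes passed the filter, and none had an adjusted p under 0.05 in limma. At an unadjusted p under 0.05, 3 were lower (Mir5114, Incenp and Fen1) and none higher, against 5.77% and 5.11% of all genes. Around Scd2, the paralogue Scd3 had 12, 11 and 12 normalised counts in untreated and 13, 5 and 4 in treated libraries, which overlapped, at a log2 fold change of -0.76 ± 0.59. The remaining log2 fold changes there were 0.41 for Chuk, 0.23 for Cwf19l1, -0.18 for Bloc1s2 and -1.57 for Mir5114. Mir5114 (unadjusted p = 0.0165 in limma, adjusted p = 0.306) lies inside Scd2 on the same strand, so its reads cannot be told apart from those of Scd2.

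Around Fads2, the third family member Fads3 had 322, 463 and 408 normalised counts in untreated and 332, 376 and 515 in treated libraries. Its log2 fold change was 0.03 ± 0.26, and the groups overlapped as they did for Fads1. On the same scale the values were 0.22 for Fth1, 0.04 for Rab3il1 and 0.33 for Tmem258. Those of Best1 (-1.17) and Myrf (-1.16) came from low counts. Incenp (-0.98, adjusted p = 0.213 in limma) and Fen1 (-1.16, adjusted p = 0.224) encode proteins of cell division and DNA replication.

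**Figure D4:**
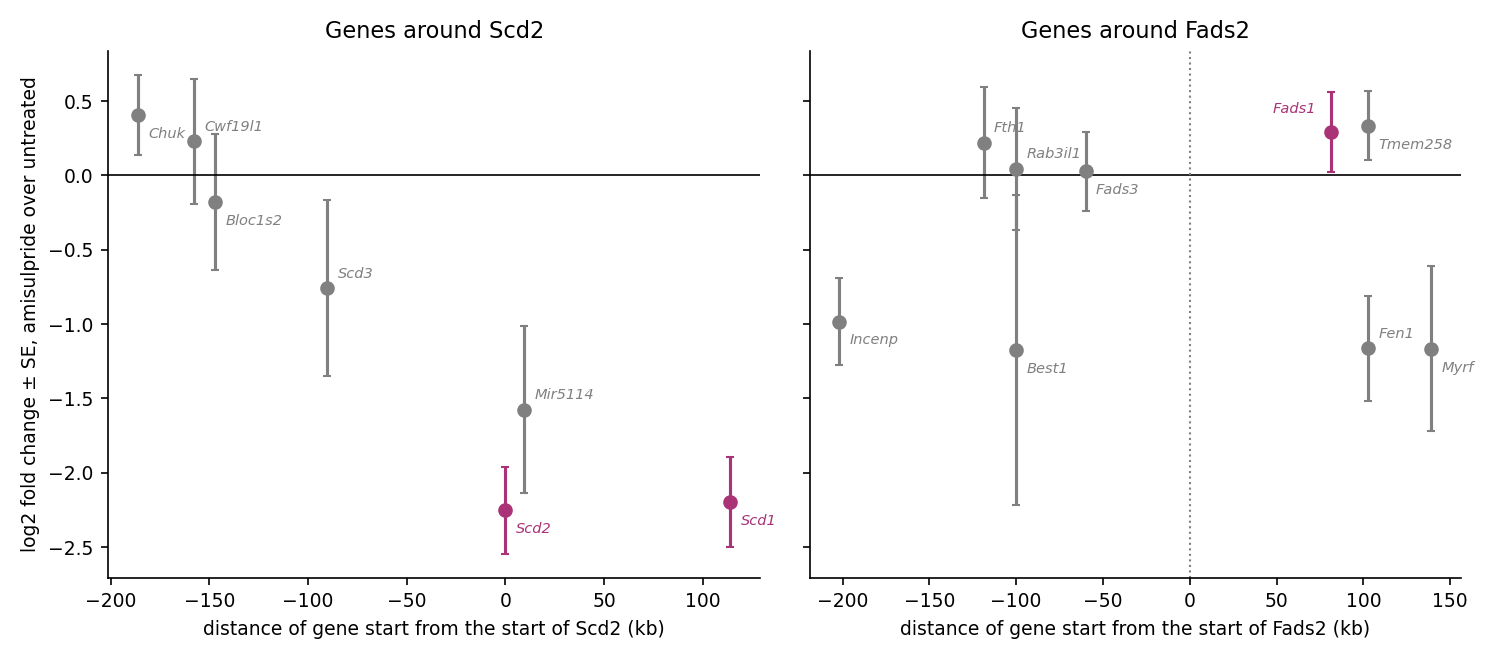
Log2 fold change ± SE, amisulpride over untreated, of the tested genes around Scd2 (left) and Fads2 (right), against the distance in kb of each gene's start from the start of Scd2 or Fads2. Scd1 and Scd2 lie at -2.20 and -2.25 with Chuk, Cwf19l1 and Bloc1s2 between -0.18 and 0.41, and Fads1 and Fads3 lie at 0.29 and 0.03; the dotted line marks Fads2, which was not tested.

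Promoters of 7 of the 10 genes, all but Scd1, Scd2 and Fads1, were scanned in 8 windows of 300 bases (250 before and 50 after the start) among 32851 RefSeq promoters (GRCm38.p6). None of the 8 held the letters TCACNCCAC, the core of the sterol regulatory element bound by SREBP, on either strand, which 1.24% of all promoters hold. The LXR repeat, a pair of AGGTCA half-sites spaced by 4 bases, was in none of them either, against 0.0152% of all. At such low shares, absence from 8 windows is uninformative for both motifs. CCAAT, the letters bound by the factor NF-Y, stood in 4 of 8 windows against 37.4% of all, GGGCGG in 4 against 35.7%, and CANNTG in 5 against 72.3%. These are matches of letters on both strands, not sites, and matches of different motifs may overlap. The window of Acaca and the downstream window of Elovl1 (chr4:118429451-118429750) lie within their genes, at internal starts. The 250 bases before the starts of Fasn, which was lower in treated SFs, and of Elovl5, whose groups overlapped, are shown because they hold the most CCAAT matches. Capitals mark CCAAT or its reverse complement:
Fasn (chr11:120824548-120824797, minus strand): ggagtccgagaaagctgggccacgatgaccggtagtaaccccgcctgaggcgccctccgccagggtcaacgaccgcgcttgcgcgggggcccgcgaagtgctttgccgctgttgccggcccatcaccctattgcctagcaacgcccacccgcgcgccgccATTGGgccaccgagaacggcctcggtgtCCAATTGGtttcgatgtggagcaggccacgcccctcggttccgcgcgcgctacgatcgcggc
Elovl5 (chr9:77917115-77917364, plus strand): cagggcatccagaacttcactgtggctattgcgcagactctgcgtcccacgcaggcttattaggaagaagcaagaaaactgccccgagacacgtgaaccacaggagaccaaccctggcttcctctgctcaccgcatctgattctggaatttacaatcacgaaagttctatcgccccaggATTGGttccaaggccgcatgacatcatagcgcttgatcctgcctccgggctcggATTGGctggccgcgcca
Fasn held 3 matches, beginning 90, 62 and 59 bases before the start, the last 2 overlapping on opposite strands, and 3 or more occur in 3.37% of promoters. Elovl5 held 2, which 11.7% of promoters reach.

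The surrounding lipid genes were examined in 9 lists of 127 names, of which 106 passed the filter, 4 were called lower and none higher in limma at an adjusted p under 0.05, with 27 lower and 3 higher at an unadjusted p under 0.05, where all 12614 genes gave 5.77% lower and 5.11% higher. All 4 belong to sterol synthesis, the pathway that shares the SREBP factors with the genes above. All 20 of its enzymes had a log2 fold change below 0, with a median of -1.19, and 16 had an unadjusted p under 0.05 in limma. Closest to 0 were Ebp (-0.05 ± 0.38) and Hmgcs1 (-0.25 ± 0.50), whose groups overlapped. Hmgcs1 had 1023, 786 and 1239 normalised counts in untreated and 581, 438 and 2312 in treated libraries, so its highest value was a treated one. Farnesyl diphosphate synthase Fdps had 150, 126 and 168 normalised counts in untreated and 39, 21 and 20 in treated libraries, and its log2 fold change was -2.48 ± 0.33 at an adjusted p of 0.013. Mvd (-1.76, adjusted p = 0.0222 in limma), Cyp51 (-1.54, 0.0262) and Fdft1 (-1.53, 0.0443) fell too. Idi1 (-1.56, adjusted p = 0.0678) did not pass. With the replicate block, 10 of the 20 were called lower, Idi1 among them at an adjusted p of 0.00688. Of all genes, 1.05% were called lower in that fit and 0.19% in the main one.

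Outside sterol synthesis no list had a gene called in limma, with 11 lower and 3 higher of 86 genes at an unadjusted p under 0.05. Among 16 SREBP and LXR regulators, 12 passed the filter and 10 were below 0, against 49.9% of all genes. At an unadjusted p under 0.05 in limma, 3 were lower and none higher, against 5.77% and 5.11% of all genes. The median of the 12 regulators, -0.23, was -0.39 without untreated replicate 1 and -0.38 and -0.36 without amisulpride replicates 1 and 2. The LXR target Abcg1, a sterol exporter, had 21, 27 and 27 normalised counts in untreated and 11, 4 and 4 in treated libraries, and Insig1, an SREBP target that retains SREBP in the endoplasmic reticulum, had 62, 44 and 82 and then 30, 12 and 36. Their log2 fold changes were -1.95 ± 0.53 and -1.33 ± 0.44, with adjusted p-values of 0.173 and 0.265 in limma. The treated values were all lower for both genes. Those of Abcg1 in amisulpride replicates 2 and 3, however, lay at or below the floor of 3 reads (4.01 and 5.37 normalised counts).

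Among 9 tested genes that supply acetyl-CoA or NADPH or act on the carboxylase, 5 were below 0 and 4 above, with a median of -0.30, which was -0.10 without untreated replicate 3 and -0.16 and -0.12 without amisulpride replicates 1 and 2. Mid1ip1, which helps acetyl-CoA carboxylase to polymerise, had 94, 41 and 79 normalised counts in untreated and 40, 28 and 30 in treated libraries, at -1.04 ± 0.37 and an adjusted p of 0.305. Trib3, a stress-induced pseudokinase reported to promote degradation of the carboxylase, had 105, 184 and 345 in untreated and 405, 614 and 587 in treated libraries, all higher. Its log2 fold change was 1.48 ± 0.38, with an adjusted p of 0.154, and of 0.00899 in the fit with the replicate block.

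The membrane partners of elongases and desaturases were mixed, with 5 of 9 below 0 and a median of -0.12, which ranged from -0.28 without untreated replicate 2 to 0.15 without amisulpride replicate 2. The lowest p-values were those of the dehydratase Hacd1 (-0.52 ± 0.25) and the electron carrier Cyb5b (-0.51 ± 0.27), which did not pass. Of 10 other desaturases and elongases, 4 were tested, with a median of -0.08, which was -0.15 and 0.05 when untreated replicate 1 or 2 was left out and lay between these values for the other libraries. The ceramide desaturase Degs1 stood at -0.18 ± 0.25, and Degs2, Elovl2 and Elovl3 were at 0 in all libraries. The separate mitochondrial route of fatty acid synthesis had 5 tested genes, 3 of them above 0, with a median of 0.21 that was 0.08 and 0.35 without amisulpride replicates 2 and 1 and 0.09 without untreated replicate 2, and Cbr4 (0.52 ± 0.28) and Oxsm (0.36 ± 0.46) led it by p-value without passing.

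Genes that take up, bind and activate fatty acids had 8 of 12 below 0 and a median of -0.52. The fatty acid carrier Fabp4 had 303, 309 and 324 normalised counts in untreated and 128, 187 and 229 in treated libraries, at -0.82 ± 0.27 and an adjusted p of 0.261, and the transporter Slc27a1 had 49, 54 and 39 and then 31, 23 and 23, at -0.86 ± 0.33 and an adjusted p of 0.357. Fabp4 is also an adipocyte marker. Of 13 such markers 2 were tested, 6 (Adipoq, Cidec, Lep, Cfd, Adig and Ucp1) were at 0 in all libraries, and the summed level, mostly Fabp4, was 320 to 349 in untreated and 153 to 261 in treated SFs. Of 10 endothelial markers 1 was tested, with Cdh5, Tie1 and Cldn5 at 0, and the sum was 78 to 98 against 27 to 67. Of 10 muscle markers 2 were tested, with Myh1, Myh2 and Myh4 at 0, and the sum was 16 to 69 against 28 to 65.

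Glycerolipid assembly had 10 of 15 genes below 0 and a median of -0.21, which was -0.03 without untreated replicate 1 or amisulpride replicate 3 and -0.11 without amisulpride replicate 2, with Dgat1, the last step of triglyceride synthesis, at -0.56 ± 0.25 and the acyltransferase Agpat3 at 0.55 ± 0.25. Fatty acid oxidation was balanced, with 11 below 0, 9 above and a median of -0.01, which ranged from -0.08 without amisulpride replicate 2 to 0.14 without amisulpride replicate 3. Its lowest p-values belonged to the mitochondrial acyltransferase Cpt2, at 66, 75 and 52 in untreated and 104, 135 and 310 in treated libraries, and to the isomerase Eci1, at 41, 26 and 30 and then 58, 51 and 77. Their log2 fold changes were 1.35 ± 0.38 and 0.92 ± 0.33, with adjusted p-values of 0.201 and 0.306 in limma, and for both genes all treated values were higher.

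**Figure D5:**
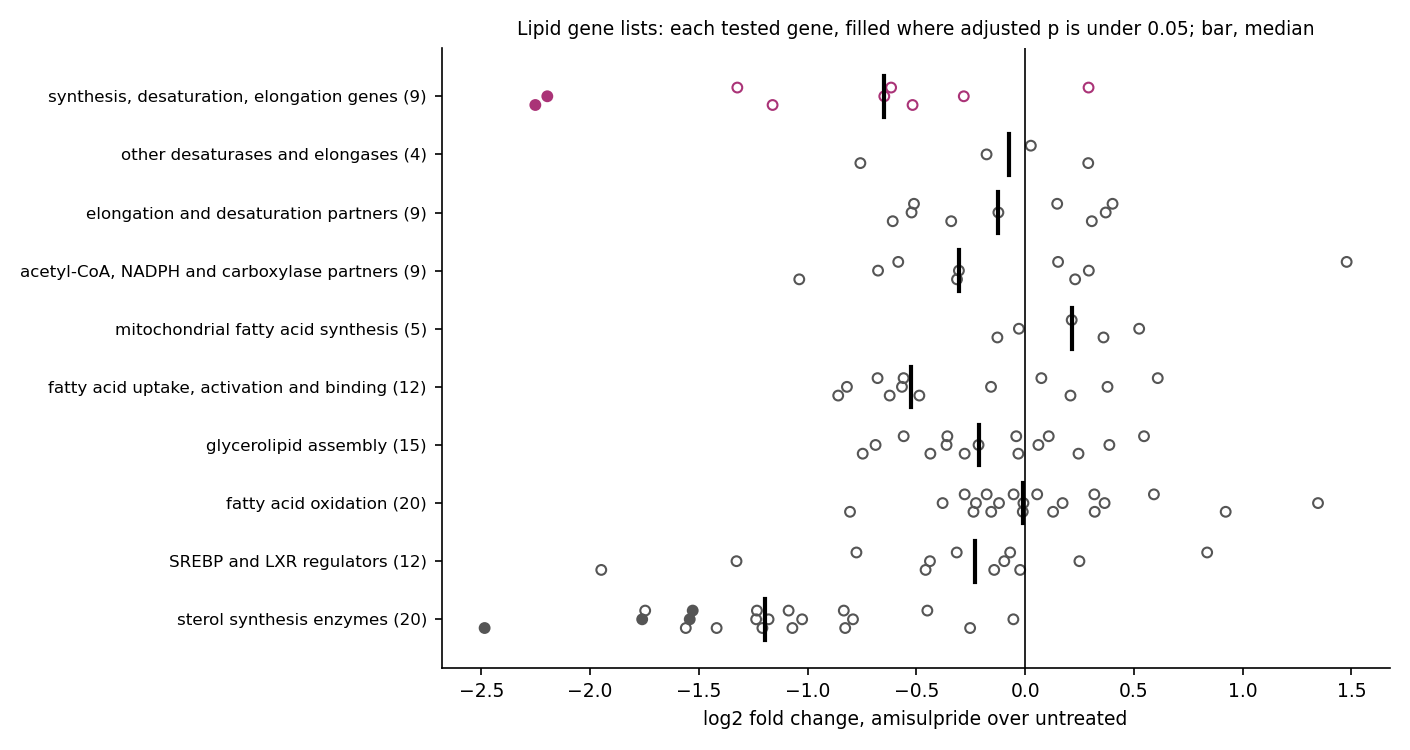
Log2 fold change, amisulpride over untreated (horizontal axis), of every tested gene of the 9 lipid lists and of the 9 tested genes for synthesis, desaturation and elongation, with the number tested in parentheses and a bar at the median. Filled circles, with an adjusted p under 0.05, are Scd1 and Scd2 in the top row and Fdps, Mvd, Cyp51 and Fdft1 among the sterol synthesis enzymes, whose median is -1.19.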

How the data were processed

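RNA-Seq reads were mapped by the authors to mm10 with TopHat2 at default settings and iGenomes annotation, and unmapped reads with Bowtie2 in its very sensitive preset. GenomicRanges gave the reads per gene. The counts were then normalised, by a method that the paper does not name, and DESeq was used for differential expression. These steps were run through metaseqr (versions not given in the sources used here). The deposited values are a score: read counts that the authors divided by a factor per library and rounded. The deposited p-values and fold changes, and 12 other columns of values per library, were not used.

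Low values fall on multiples of 1 read, which gave 0.834 to 1.79 normalised counts per read and depths of 2.52 to 4.71 M reads. For untreated replicate 1 the estimate of 4.0 M reads is uncertain. The floor of 3 reads, 2.5 to 5.37 normalised counts, covers counting error only, since the reads had no molecular identifiers.

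Untreated and treated libraries were compared in limma 3.58.1 (R 4.3.3, two-sided, variance trend) on log2(normalised count + 1), for the 12614 genes that reached 10 in 3 or more of 6 libraries, with Benjamini-Hochberg adjustment over all of them. Fold changes on this scale understate the change of low genes. Simple spreads are SDs over 3 libraries. An exact permutation test of 3 against 3 libraries cannot go below 0.1, so none was used.

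The genes, lists and tests were chosen with earlier results of these data known. Named are the 10 genes, every listed gene with an adjusted p under 0.05 and the 2 with the next lowest p-values in each list, the tested genes around the Scd and Fads loci, and the 5 genes outside all lists most correlated with the genes described. A gene that this rule names is not reported here. Of 212 names in lists, 210 were matched by name and 1 by Ensembl ID. Cdc20, Gm5182 and Gm11295 were added for overlap or shared sequence. Promoters came from RefSeq (GRCm38.p6) and coding sequences from GENCODE M21, aligned with Biopython 1.88. Protein sequences were not analysed here.

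Same-numbered untreated and treated libraries deviated weakly together from their group means (r = 0.229, 0.24 and 0.201, against -0.149 to -0.0777 for other pairs), so the numbers may pair the libraries. Deviations within a group sum to 0, so the negative values are not a separate observation. The sources do not state a pairing, and the main fit had no block. The alternatives were a pseudocount of 5, no filter, quantile normalisation, median centring, the replicate block, library weights, the study thresholds and leaving out each library.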

Additional observations from a re-analysis of the deposited data

How the results depend on the processing

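The number of genes called across the transcriptome was 36. It was 57 with a pseudocount of 5, 57 without the filter, 66 after quantile normalisation, 263 with the replicate block, 195 with library weights and 719 at the study thresholds. Leaving out a library gave 0 to 120, with 0 without untreated replicate 2 or 3 (1083 and 911 genes at an unadjusted p under 0.05 in limma), 1 without untreated replicate 1, 6 and 17 without amisulpride replicates 2 and 1, and 120 without amisulpride replicate 3. Of the 9 tested genes for synthesis, desaturation and elongation, 2 were called, 4 at the study thresholds and 0 to 2 when a library was left out, with 0 without untreated replicate 1, 2 or 3 or amisulpride replicate 2.

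In the lipid lists 4 genes were called, 11 with the replicate block, 11 with library weights and 0 to 6 without a library. Beyond Fasn, Trib3, Cdc20 and the sterol enzymes, the replicate block changed no other call among the genes named. Fasn also passed with library weights, with an adjusted p of 0.0404. The desaturase average of -1.39 was -1.03 without the filter, because Fads2 then entered it. The median of the elongase and desaturase partners ranged from -0.28 to 0.15 when a library was left out and turned from -0.12 to 0.15 without amisulpride replicate 2, for which the cause was not tested. Over 12 alternatives the log2 fold change kept its sign for all 9 genes, ranging from -2.37 to -2.04 for Scd1 (adjusted p 0.00135 to 0.167 in limma), -2.46 to -1.98 for Scd2 (0.000285 to 0.156), -1.54 to -1.12 for Fasn (0.0267 to 0.467), -1.32 to -0.91 for Acaca, -0.91 to -0.48 for Acly, -0.72 to -0.23 for Elovl1, -0.62 to -0.10 for Elovl5, -0.95 to -0.20 for Elovl6 and 0.16 to 0.47 for Fads1. Depth limited Fads2 and Acaca, and outliers were not tested in groups of 3.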

Other observations

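The genes outside all lists whose log2 values over the 6 libraries were most correlated with the mean profile of the 9 tested genes were Dbf4 (Pearson r = 0.997), the processed pseudogene Gm3571 (0.996), Hdgf (0.994), Fam46b (0.993) and Exosc6 (0.991). The libraries form 2 groups, so a correlation of this kind mainly reflects the difference between them, and it is given as a description over 6 libraries. Dbf4, which activates a kinase of DNA replication, had 53, 49 and 59 normalised counts in untreated and 29, 23 and 23 in treated libraries. Gm3571 had 109, 90 and 141 and then 27, 25 and 21, and fell by 2.16 on the log2 scale with an adjusted p of 0.0156 in limma. Hdgf, a growth factor, had 1688, 1591 and 1833 and then 957, 827 and 880. Fam46b had 14, 15 and 23 and then 4, 3 and 2, and Exosc6, a subunit of the RNA exosome, 74, 69 and 82 and then 52, 52 and 48. The Fam46b values of 3 and 2 in amisulpride replicates 2 and 3 lay below the floor of 3 reads. All treated values were lower for each of these 5 genes, which choosing them by this correlation makes likely, and for 8.66% of all genes. Dbf4, Hdgf, Fam46b and Exosc6 did not pass, with adjusted p-values of 0.21, 0.117, 0.173 and 0.498 in limma.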
